A study of Rattus norvegicus with 6 samples.

Results

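The genes described here are the 7 subunits of respiratory complex I that are encoded by mitochondrial DNA, Mt-nd1, Mt-nd2, Mt-nd3, Mt-nd4l, Mt-nd4, Mt-nd5 and Mt-nd6. They were taken by rat Ensembl identifier from a table of 30560 genes, and all 7 were found and passed the filter on low values. The RNA came from primary rat mesenchymal stem cells of the bone marrow, which grow attached to the dish and can turn into bone cells, and all samples were kept under osteogenic differentiation before RNA sequencing. In 3 samples S100A16, a calcium-binding protein of the S100 family, had been silenced with a small interfering RNA (siS100A16), and 3 samples had received a control siRNA (siNC). Marrow was taken from the femoral neck and cells were used at passages 3 to 5. The sources used here do not give rat strain, age, the number of animals or the hours after transfection. Nor do they say that replicates were separate cultures, and the p-values cover only the spread among these 6 samples, which could be technical.

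Complex I (NADH:ubiquinone oxidoreductase) takes electrons from NADH, passes them to ubiquinone and pumps protons across the inner mitochondrial membrane. Its mitochondrially encoded subunits all lie in the membrane arm and are joined by many subunits encoded in the nucleus. Mitochondrial DNA is transcribed from both strands into long precursors that are cut into single messengers, mostly at the transfer RNAs between them. Mt-nd6 is the only protein-coding gene read from its strand, and the other members are read from the opposite one. Marrow stromal cells are known to make more use of oxidative phosphorylation as they become osteoblasts.

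The identifiers were checked by gene length. The deposited unit is FPKM, read numbers scaled by gene length and library total, from which whole reads and lengths could be worked out. The lengths came to 955 nt for Mt-nd1, 1039 nt for Mt-nd2, 348 nt for Mt-nd3, 297 nt for Mt-nd4l, 1378 nt for Mt-nd4, 1830 nt for Mt-nd5 and 519 nt for Mt-nd6. This is the order of size known for these genes in mammals, from Mt-nd5, the longest, to Mt-nd4l, the shortest, and no identifier was dropped. Length alone does not identify a gene, since up to 7 other tested genes shared the length of a member.

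The siNC libraries had 7135826 to 8059327 reads assigned to genes, and the siS100A16 libraries had 5387539 to 6937001. Genes above 0 numbered 17895 to 18038 in the siNC libraries and 15778 to 16609 in the siS100A16 libraries. This difference goes together with silencing, and its cause was not tested. The 100 most abundant genes, 3 of them members, took 38.1% to 40.4% of the reads in siNC and 27.5% to 29.1% in siS100A16. Identifiers in the table carry no gene names and the reference tables used here pair 0 of them with a symbol. The silencing of S100A16, the markers of stromal and blood cells, the nuclear subunits of complex I, its assembly factors and the mitochondrial transcription factors were therefore not assessed.

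The levels of 4 members, Mt-nd1, Mt-nd2, Mt-nd4l and Mt-nd4, fell after S100A16 silencing, and no member rose past the test. The test was limma on log2(FPKM + 1), with a Benjamini-Hochberg adjusted p under 0.05 over all 12336 tested genes. Mt-nd4l and Mt-nd4 share a messenger, so that the 4 calls are not all of separate messengers. Mt-nd2 fell most, to a mean level 2.58-fold higher in siNC than in siS100A16. For Mt-nd3, Mt-nd5 and Mt-nd6 the mean was higher in siS100A16, but the groups overlapped and the test was not passed. In the background of all tested genes 20.7% were called, 4.27% lower and 16.4% higher. The median log2 fold change was -0.48 over the members and 0.17 over all tested genes. Among the 821 tested genes whose mean FPKM reached 100, 67 were called lower and 425 higher, with a median of 0.57.

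**Figure D1:**
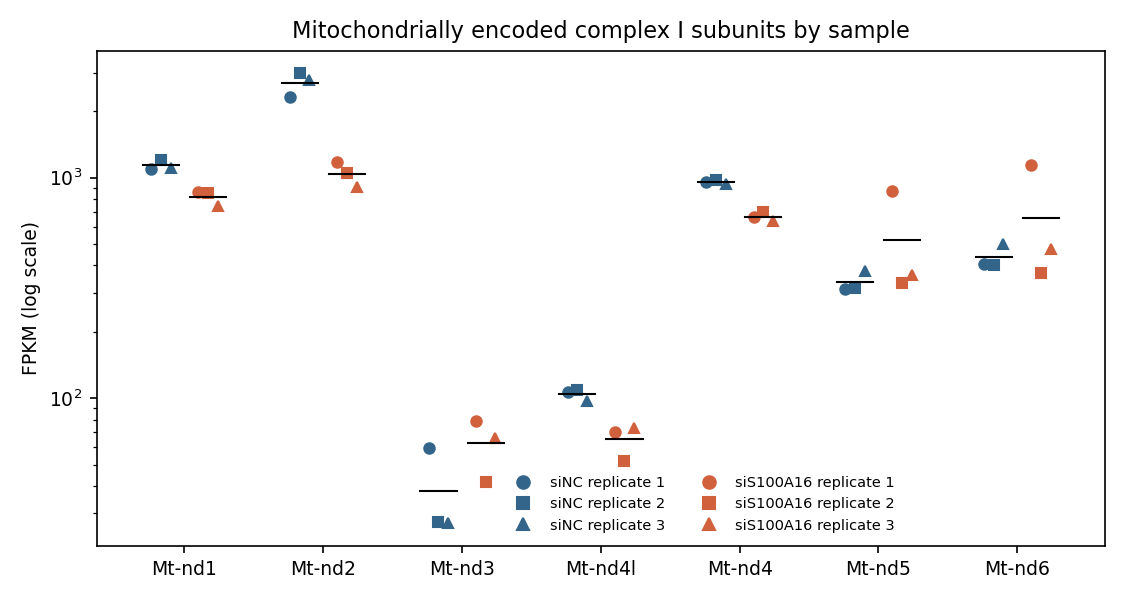
FPKM of each member (log scale) in the 3 siNC samples (blue) and the 3 siS100A16 samples (orange), with a symbol per replicate number and a black line at the group mean. The groups are separate for Mt-nd1, Mt-nd2, Mt-nd4l and Mt-nd4 and overlap for Mt-nd3, Mt-nd5 and Mt-nd6, where siS100A16 replicate 1 holds the highest value of each.

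FPKM is scaled by length, but the order of the members is an order of FPKM and not of messenger number. Mt-nd4l (297 nt) and Mt-nd4 (1378 nt) share a messenger, and yet Mt-nd4 over Mt-nd4l was between 8.72 and 13.5 in the 6 samples, so that short and long members may not be on a common scale. In siNC the order of mean FPKM was Mt-nd2, Mt-nd1, Mt-nd4, Mt-nd6, Mt-nd5, Mt-nd4l and Mt-nd3, and each member lay above the next without overlap of their 3 values. The order of the means was the same in siS100A16. For neighbours in that order, the siS100A16 values of Mt-nd4 and Mt-nd6, Mt-nd6 and Mt-nd5, and Mt-nd4l and Mt-nd3 overlapped between samples. Within each sample Mt-nd6 was above Mt-nd5. Members further apart overlapped too. Mt-nd6 (369 to 1138 FPKM) overlapped Mt-nd1 (746 to 858 FPKM) and Mt-nd2 (906 to 1177 FPKM). Mt-nd5 (335 to 872 FPKM) overlapped Mt-nd1 and Mt-nd4 (638 to 699 FPKM). In siS100A16 replicate 1 the order was Mt-nd2, Mt-nd6, Mt-nd5, Mt-nd1, Mt-nd4, Mt-nd3 and Mt-nd4l. The other siS100A16 replicates kept the order of the means. Mt-nd2 over Mt-nd3, the members with the highest and the lowest mean FPKM, was 39.2, 108.8 and 102.7 in siNC replicates 1 to 3. It was 14.9, 25.0 and 13.7 in siS100A16 replicates 1 to 3, although in siS100A16 replicate 1 Mt-nd4l was the lowest member.

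Mt-nd1 (ENSRNOG00000030644) forms part of the channel that ubiquinone enters, where the membrane arm meets the arm that holds the NADH site. Its level was 1094, 1207 and 1113 FPKM in siNC and 858, 848 and 746 FPKM in siS100A16. All siS100A16 values lay below all siNC values, a separation that 12.2% of all tested genes showed in this direction and 29.3% in the other, 41.6% in all. The means were 1138 ± 60.7 and 818 ± 62.0 FPKM (SD, n = 3 each), and Mt-nd1 fell by 0.48 on the log2 scale (SE 0.11, limma adjusted p = 0.0238). The call was lost when siNC replicate 1, 2 or 3 or siS100A16 replicate 3 was left out (limma adjusted p of 0.066, 0.128, 0.0601 and 0.0734, with log2 fold changes of -0.51, -0.43, -0.49 and -0.41). Over all alternatives run, the limma adjusted p ranged from 0.00635 to 0.128 and the direction was always lower.

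Mt-nd2, Mt-nd4 and Mt-nd5 are the antiporter-like subunits, related in structure, each of which is thought to hold a proton path. Of them Mt-nd2 (ENSRNOG00000031033) was the most abundant, with 2324, 2979 and 2784 FPKM in siNC and 1177, 1047 and 906 FPKM in siS100A16. The lowest siNC value was thus well above the highest siS100A16 value, and the rank of the gene by FPKM within its library went from between 18 and 23 in siNC to between 51 and 61 in siS100A16. The means were 2696 ± 336 and 1043 ± 135 FPKM (SD, n = 3 each). Mt-nd2 fell by 1.37 on the log2 scale (SE 0.15, limma adjusted p = 0.00438). It was called lower in all 17 alternative fits, with log2 fold changes from -1.61 to -1.27 and limma adjusted p from 0.00165 to 0.0357.

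Mt-nd4 (ENSRNOG00000029707), which sits farther out in the membrane arm, had the smallest SD of log2(FPKM + 1) among the members in both groups. Its values were 961, 981 and 932 FPKM in siNC and 662, 699 and 638 FPKM in siS100A16, again without overlap. With means of 958 ± 24.5 and 666 ± 30.6 FPKM (SD, n = 3 each), it fell by 0.52 on the log2 scale (SE 0.11, limma adjusted p = 0.0137). Without siNC replicate 1 or 2 the call was lost, at limma adjusted p of 0.0525 and 0.0854 and log2 fold changes of -0.52 and -0.51. Across all alternatives the limma adjusted p ran from 0.00764 to 0.0854.

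Mt-nd5 (ENSRNOG00000029971), the subunit at the far tip of the membrane arm, did not follow Mt-nd2 and Mt-nd4. It was measured at 313, 315 and 377 FPKM in siNC and at 872, 335 and 361 FPKM in siS100A16. The value of siS100A16 replicate 1 stood alone, whereas replicates 2 and 3 lay within the range of siNC. The means were 335 ± 36.2 and 522 ± 303 FPKM (SD, n = 3 each), and the log2 fold change of 0.50 (SE 0.34, 95% interval -0.27 to 1.27) was within the spread (limma adjusted p = 0.332). Without siS100A16 replicate 1 the log2 fold change was 0.06, with a 95% interval from -0.27 to 0.39 (limma adjusted p = 0.786). The alternatives gave limma adjusted p from 0.171 to 0.827.

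Mt-nd3, Mt-nd4l and Mt-nd6 are small subunits that lie between Mt-nd1 and Mt-nd2 in the membrane arm. Mt-nd4l (ENSRNOG00000031053) shares a messenger with Mt-nd4, and their reading frames overlap by a few bases. Its level was 106, 109 and 97.3 FPKM in siNC and 70.4, 51.7 and 73.1 FPKM in siS100A16, which rested on 231 to 239 reads and on 98 to 145 reads per library. The groups did not overlap. The means were 104 ± 6.12 and 65.1 ± 11.7 FPKM (SD, n = 3 each), and Mt-nd4l fell by 0.69 on the log2 scale (SE 0.17, limma adjusted p = 0.0248). This call was lost without siNC replicate 1, 2 or 3 (limma adjusted p of 0.0857, 0.116 and 0.0589, with log2 fold changes of -0.67, -0.65 and -0.73) and when reads were tested with limma voom (adjusted p = 0.0605). Its limma adjusted p over all alternatives was between 0.00893 and 0.116.

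Mt-nd3 (ENSRNOG00000033615), which carries a loop that moves when mammalian complex I passes between its active and resting states, had the lowest mean FPKM of the members. It had 59.3, 27.4 and 27.1 FPKM in siNC and 79.1, 41.9 and 66.1 FPKM in siS100A16, from 156, 68 and 76 reads and from 191, 93 and 124 reads. The value of siNC replicate 1 lay inside the range of siS100A16, and the siNC replicates were themselves apart beyond counting error. The exact Poisson 95% interval was 132 to 182 reads for siNC replicate 1 and 52.8 to 86.2 reads for siNC replicate 2. The means were 37.9 ± 18.5 and 62.4 ± 18.9 FPKM (SD, n = 3 each), with a log2 fold change of 0.75 (SE 0.34, 95% interval -0.04 to 1.55) that did not pass the test (limma adjusted p = 0.16). Without siNC replicate 1 it was 1.12 (limma adjusted p = 0.0527), and the alternatives ranged from 0.34 to 1.12 with limma adjusted p from 0.0456 to 0.537.

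Mt-nd6 (ENSRNOG00000029042), the member read from the opposite strand, had 405, 402 and 498 FPKM in siNC and 1138, 369 and 473 FPKM in siS100A16. As with Mt-nd5, siS100A16 replicate 1 was far above the other samples, and siS100A16 replicate 2 was below all siNC samples. The means were 435 ± 54.9 and 660 ± 417 FPKM (SD, n = 3 each), and the log2 fold change was 0.43 (SE 0.37, 95% interval -0.42 to 1.28, limma adjusted p = 0.449). Without siS100A16 replicate 1 the direction turned, to a log2 fold change of -0.051 with a 95% interval from -0.48 to 0.37 (limma adjusted p = 0.86). Over the alternatives the limma adjusted p was between 0.166 and 0.981. Mt-nd5 and Mt-nd6 meet end to end on opposite strands, and whether the reads were counted by strand is not stated in the labels, so that reads of either gene and of transcripts antisense to it cannot be told apart.

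**Figure D2:**
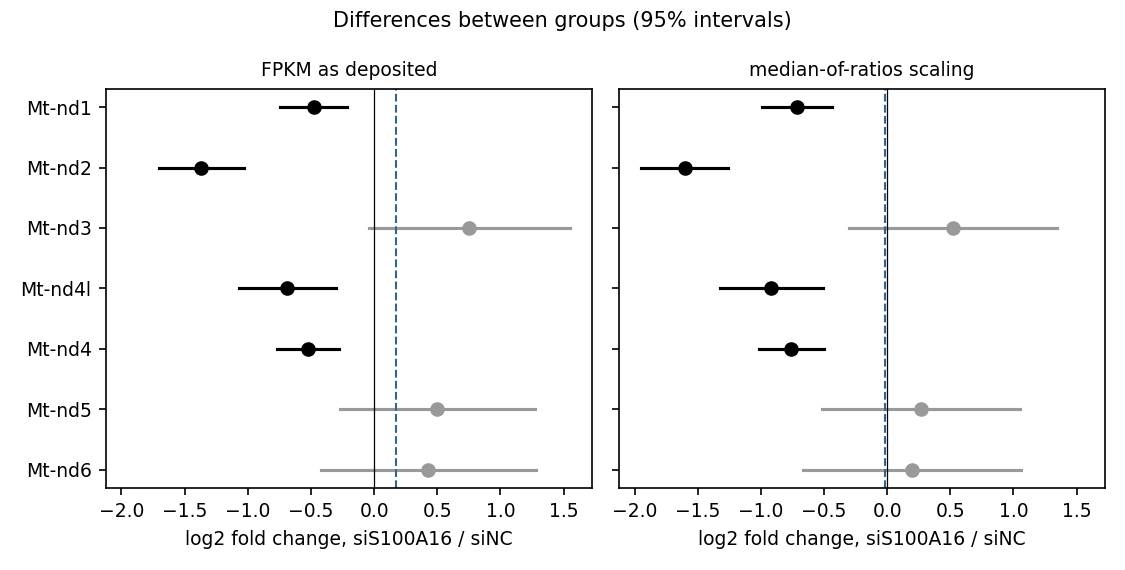
Log2 fold change of each member (siS100A16 over siNC, points) with its 95% interval from limma (lines), with values as deposited (left) and after median-of-ratios scaling (right). Black marks members with an adjusted p under 0.05, grey the others, and the dashed line the median of all tested genes, 0.17 on the left and -0.02 on the right; the same 4 members are called lower in both.

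The values depend on how libraries are put on a common scale. Median-of-ratios scaling took the median log2 fold change of all tested genes from 0.17 to -0.02. With it the values were -0.71 for Mt-nd1, -1.60 for Mt-nd2, -0.92 for Mt-nd4l and -0.76 for Mt-nd4, and 4 members were again called lower and 0 higher (limma, adjusted p under 0.05). Those of Mt-nd3, Mt-nd5 and Mt-nd6 were 0.52, 0.27 and 0.20. Quantile normalization brought Mt-nd5 to 0.12 and Mt-nd6 to 0.02. The calls over all genes were then nearly balanced, at 821 lower and 928 higher with median of ratios, against 527 lower and 2029 higher with values as deposited.

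**Figure D3:**
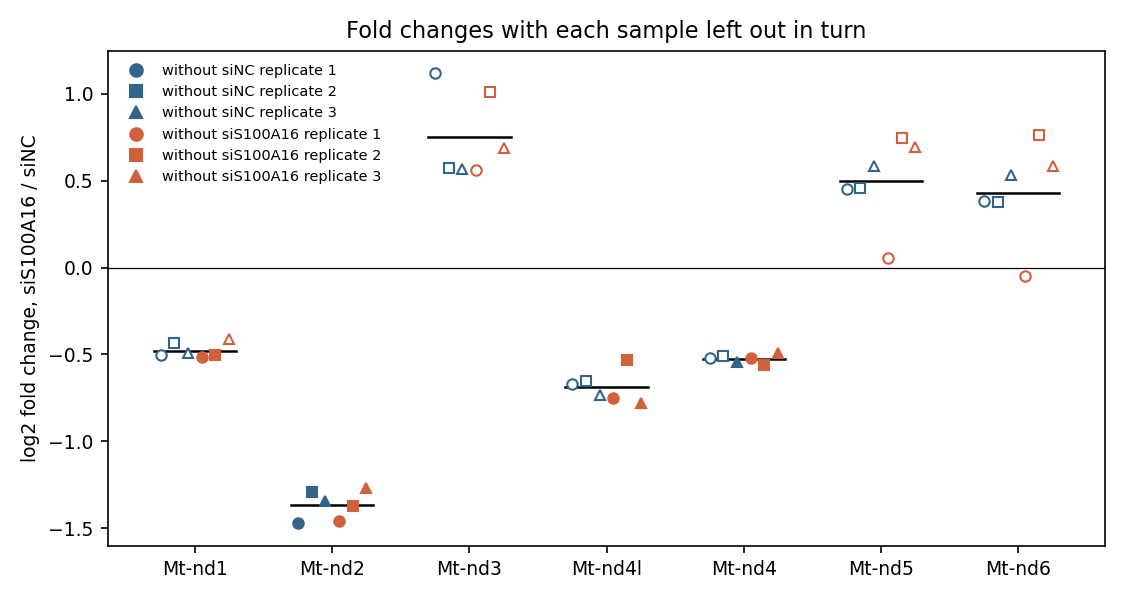
Log2 fold change of each member (siS100A16 over siNC) with each sample left out in turn. The black line is the value with all 6 samples, colour and symbol give the sample left out, and filled symbols have an adjusted p under 0.05; Mt-nd2 is filled throughout, and Mt-nd5 and Mt-nd6 come near 0 without siS100A16 replicate 1.

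Together the 7 genes took 0.562%, 0.643% and 0.623% of the reads in siNC and 0.519%, 0.369% and 0.348% in siS100A16. All siS100A16 values were below the siNC values, and siS100A16 replicate 1 lay nearest to siNC. The means were 0.609% ± 0.0421 and 0.412% ± 0.0930 (SD, n = 3 each), given as a description without a test because the genes were chosen as a family. For single libraries the Wilson 95% intervals were narrow, for example 0.514% to 0.524% in siS100A16 replicate 1 and 0.557% to 0.567% in siNC replicate 1, and they cover counting error only. The summed FPKM of the members was 5263, 6021 and 5829 in siNC and 4856, 3391 and 3264 in siS100A16, a difference in mean log2 of -0.59. Without Mt-nd5 and Mt-nd6 this difference was -0.89. In such bulk samples fewer cells of a type, fewer mitochondria per cell and less RNA per mitochondrial genome cannot be told apart.

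The makeup of the family, each member as a percentage of the summed FPKM, is not changed by a single scaling factor per library. It was not computed after quantile normalization, which does move members relative to each other. The shares of Mt-nd2, Mt-nd3, Mt-nd5 and Mt-nd6 did not overlap between the groups, and those of Mt-nd1, Mt-nd4 and Mt-nd4l did. No test is given for the shares. Of all tested genes 41.6% had levels that did not overlap between the groups, and no such background was worked out for shares. Mt-nd2 made up 44.2%, 49.5% and 47.8% in siNC and 24.2%, 30.9% and 27.8% in siS100A16, with no overlap. The means were 47.1% ± 2.72 and 27.6% ± 3.32 (SD, n = 3 each). Mt-nd5 made up 5.95%, 5.24% and 6.47% in siNC against 18.0%, 9.87% and 11.1% in siS100A16. Mt-nd6 made up 7.69%, 6.67% and 8.55% in siNC against 23.4%, 10.9% and 14.5% in siS100A16. In both genes every siS100A16 sample lay above every siNC sample, although the levels themselves overlapped. The shares add up to the whole, so that with a lower share of Mt-nd2 the other members together have a higher one. Not each of them had a higher mean share, as that of Mt-nd4l was slightly lower in siS100A16. How much of the higher shares of Mt-nd5 and Mt-nd6 goes with the lower share of Mt-nd2 was not tested. In siS100A16 replicates 2 and 3 the levels of Mt-nd5 (335 and 361 FPKM) lay inside the siNC range and those of Mt-nd6 (369 and 473 FPKM) below or inside it. Without siS100A16 replicate 1 the groups were still separate, and the differences in mean share went from 7.07 to 4.58 percentage points for Mt-nd5 and from 8.63 to 5.05 for Mt-nd6. The share of Mt-nd3 averaged 0.682% ± 0.385 in the siNC samples and 1.63% ± 0.396 in the siS100A16 samples (SD, n = 3 each), on 27.1 to 79.1 FPKM in single samples. The mean share was 19.98% in siNC and 21.9% in siS100A16 for Mt-nd1, 16.9% and 17.9% for Mt-nd4, and 1.83% and 1.74% for Mt-nd4l.

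**Figure D4:**
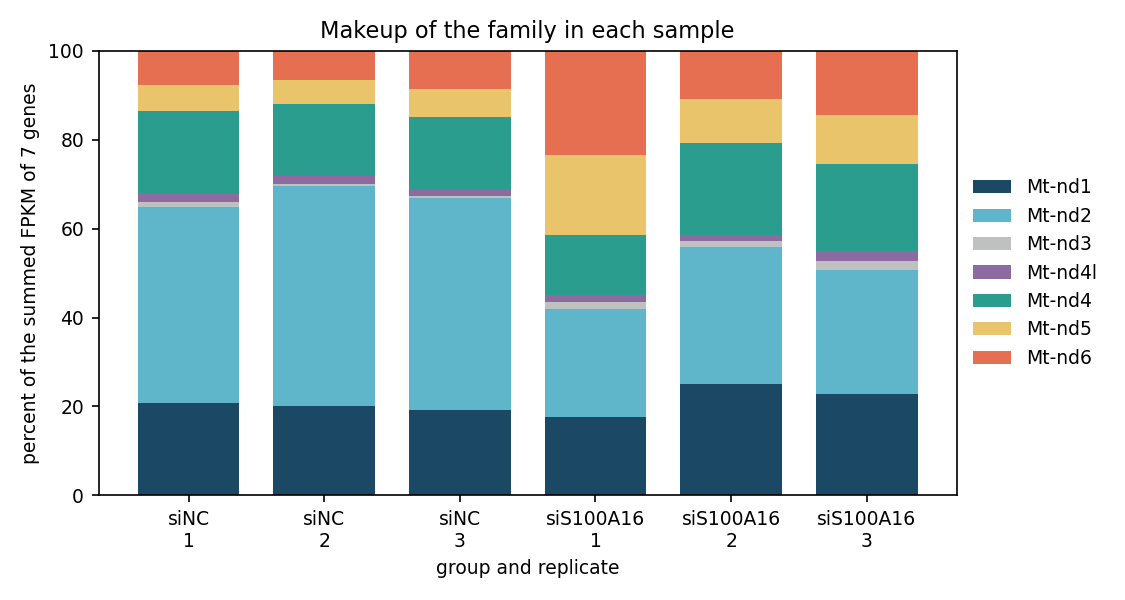
Each member as a percentage of the summed FPKM of the 7 genes, one stacked bar per sample. Mt-nd2 takes 44.2% to 49.5% of the bar in siNC and 24.2% to 30.9% in siS100A16, while Mt-nd5 and Mt-nd6 take more in each siS100A16 sample than in any siNC sample.

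Ratios of members that follow each other along mitochondrial DNA, with other genes between some of them, were compared within each sample, together with Mt-nd4 over Mt-nd1, which do not follow each other. With 3 samples against 3 the smallest p of the exact test is 0.1, so that no ratio can pass a threshold of 0.05. Mt-nd6 over Mt-nd5 was 1.29, 1.27 and 1.32 in siNC against 1.31, 1.10 and 1.31 in siS100A16. The ratio in siS100A16 replicate 1, where both genes were high, was thus within the range of the siNC samples. Mt-nd4 over Mt-nd1 overlapped between the groups as well, at 0.843 ± 0.0333 in siNC against 0.816 ± 0.0424 in siS100A16 (SD, n = 3 each, exact two-sided permutation p = 0.5). Mt-nd4 over Mt-nd4l, from the shared messenger, was 9.03, 9.002 and 9.58 in siNC and 9.40, 13.5 and 8.72 in siS100A16, where replicate 2 had 98 reads of Mt-nd4l.

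Other pairs had ratios that did not overlap between the groups, and such separation by itself gives the exact p of 0.1. These ratios were added after the values were seen, and no background of other gene pairs was worked out. Mt-nd2 over Mt-nd1 was 2.12, 2.47 and 2.50 in siNC and 1.37, 1.23 and 1.21 in siS100A16, so that all 3 siS100A16 samples were lower (exact two-sided permutation p = 0.1). Mt-nd5 over Mt-nd4 was 0.326, 0.321 and 0.404 in siNC and 1.32, 0.479 and 0.566 in siS100A16, all 3 higher (exact two-sided permutation p = 0.1). Its difference in mean log2 ratio was 1.03, and 0.58 without siS100A16 replicate 1. Mt-nd4l over Mt-nd3 was 1.80, 3.98 and 3.59 in siNC and 0.890, 1.23 and 1.11 in siS100A16. Mt-nd3 over Mt-nd2 was 0.0255, 0.00919 and 0.00973 in siNC and 0.0672, 0.0400 and 0.0730 in siS100A16, with a difference in mean log2 ratio of 2.14 (exact two-sided permutation p = 0.1). In both of these pairs the groups were separate, and siNC replicate 1 lay nearest to siS100A16. Relative to the mean of the other members on the log2 scale, Mt-nd6 stood at 0.14 ± 0.22 in siNC against 0.87 ± 0.61 in siS100A16 (SD, n = 3 each), with 0.39 in siNC replicate 3 and 0.41 in siS100A16 replicate 2 almost meeting. That difference of 0.73 was 0.39 without siS100A16 replicate 1. Relative to Mt-nd5 alone it stood at 0.37 ± 0.03 and 0.30 ± 0.14 (SD, n = 3 each, exact two-sided permutation p = 0.8).

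**Figure D5:**
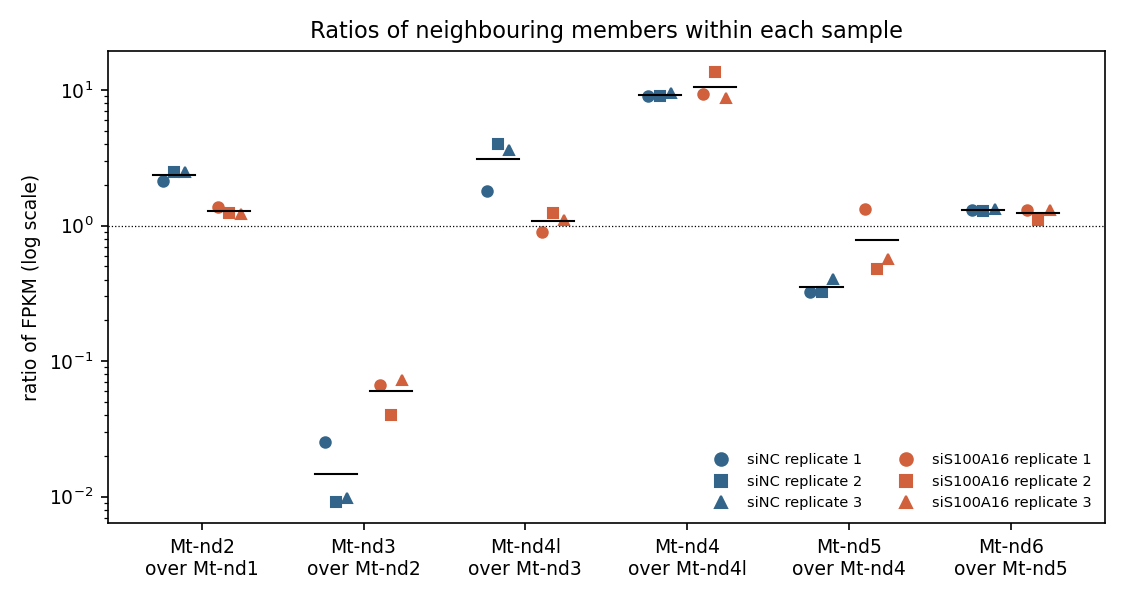
Ratio of FPKM (log scale) between members that follow each other along mitochondrial DNA, within each sample, with a black line at the group mean. Mt-nd2 over Mt-nd1 is lower and Mt-nd5 over Mt-nd4 higher in every siS100A16 sample, and Mt-nd6 over Mt-nd5 stays between 1.10 and 1.32 in all 6 samples.

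The spread between replicates was uneven over the members. In siNC the SD of log2(FPKM + 1) was 0.04 for Mt-nd4, 0.08 for Mt-nd1, 0.09 for Mt-nd4l and 0.63 for Mt-nd3. In siS100A16 it was 0.07 for Mt-nd4, 0.11 for Mt-nd1, 0.77 for Mt-nd5 and 0.85 for Mt-nd6. Mt-nd3 was therefore the most variable member in siNC, and Mt-nd5 and Mt-nd6 in siS100A16. The median SD over all tested genes was 0.17 in siNC and 0.37 in siS100A16, and that over the 821 genes whose mean FPKM reached 100 was 0.15 and 0.20. Over the members, 5 of which reached that level, it was 0.15 and 0.27.

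The genes whose pattern over the 6 samples was most like the mean log2(FPKM + 1) of the members, among 3475 others with a mean FPKM of at least 20, were ENSRNOG00000018487 and ENSRNOG00000000044. Their Pearson correlations were 0.97 each over 6 samples that share their libraries, given as a description. The levels were 265 ± 9.50 and 123 ± 6.08 FPKM in siNC, against 242 ± 64.6 and 104 ± 27.2 FPKM in siS100A16 (SD, n = 3 each). The mean over the members pools those called lower with those that were higher in siS100A16, so it is not the pattern of the called members alone. How high a correlation arises by chance among 3475 genes was not tested.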

How the data were processed

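RNA of 6 samples was sequenced from libraries made with a kit named for single cells, per the labels' protocols. The authors deposited 1 table of FPKM values for 30560 genes. The tools HISAT2 2.1.0 and DESeq2 1.14.1 are named per the submitters' processing notes with no role given, and so is a mouse build, although all 30560 identifiers are rat ones. The sources used here do not state the read counter or how it handled overlapping genes, strand and nuclear copies of mitochondrial sequence. Columns were tied to samples by arm and number. Library totals, reads and lengths were worked out from the FPKM values for 22690 of 22692 genes above 0 (whole within 0.001).

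The 12336 genes whose mean FPKM was 1 or more were tested on log2(FPKM + 1), which understates changes of low genes, in R 4.3.3 with limma 3.58.1, a variance prior following the level, group as the only term, two-sided, Benjamini-Hochberg over all of them. Ratios of 2 members were compared with exact two-sided permutation tests (scipy 1.17.1), and sums and shares over the members have no p, since the members were chosen as a list. Scripts were tested on simulated data. The alternatives tried were no filter, a minimum of 5, a pseudocount of 0.1, other scalings, variance priors and weights, limma voom on reads, a replicate block, and each sample left out. The sum without Mt-nd5 and Mt-nd6 and the ratios between members were added after the values were seen. Members and lists were chosen with earlier results of these data known. The rule for named genes took all 7 members, listed pathway genes with a symbol (none) and the 2 most similar genes.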

Additional observations from a re-analysis of the deposited data

How the results depend on the processing

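Of 119 member fold changes under 17 alternatives each, 102 kept their direction and their side of the threshold. Among the others 15 kept the direction but lost the call, 1 gained a call and 1 turned. The 102 include cases in which a member without a call stayed without one. The call was kept in 17 alternatives for Mt-nd2, 13 for Mt-nd4, 12 for Mt-nd4l and 11 for Mt-nd1. Without a filter Mt-nd1 (-0.48, adjusted p = 0.0971) and Mt-nd4 (-0.52, adjusted p = 0.0536) lost the call, and without a variance trend Mt-nd1 (-0.48), Mt-nd4l (-0.69) and Mt-nd4 (-0.52) did, with adjusted p of 0.0934, 0.06 and 0.0665. With limma voom Mt-nd4l (-0.69) lost it. The members called lower numbered 2 without a filter and 1 without a variance trend, where 370 of 22692 and 433 of 12336 tested genes were called lower. Leaving out 1 sample gave 1 (without siNC replicate 1 or 2) to 4 members called lower, beside 93 to 984 of all 12336 tested genes. The values then ranged from -0.51 to -0.41 for Mt-nd1, from -0.78 to -0.53 for Mt-nd4l, from -0.56 to -0.49 for Mt-nd4, from 0.56 to 1.12 for Mt-nd3 and from -0.051 (without siS100A16 replicate 1) to 0.76 for Mt-nd6. In the fit with a replicate block Mt-nd3 passed the test at 0.75 (limma adjusted p = 0.0456), so that 1 member was called higher, and 4 stayed called lower. That fit called 1777 of all 12336 tested genes higher and 469 lower. Same-numbered samples deviated with correlations of -0.03, 0.05 and 0.04 over genes, which cannot decide whether they shared a culture or batch. The SE of Mt-nd3, Mt-nd5 and Mt-nd6 was lower with the block (0.21, 0.28 and 0.30 against 0.34, 0.34 and 0.37). That of Mt-nd4l and Mt-nd4 was higher, and that of Mt-nd1 and Mt-nd2 hardly differed.

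The summed FPKM differed by -0.89 on the log2 scale without Mt-nd5 and Mt-nd6. The share of reads differed by -0.425 percentage points when the other most abundant genes were left out of the total. The means were then 0.999% in siNC and 0.574% in siS100A16. With all reads the difference was -0.197 percentage points, on means of 0.609% and 0.412%. The smaller total raises the shares in both groups, so the 2 differences are not on the same base. Mt-nd6 against Mt-nd5 alone gave -0.068 in place of 0.73 against all members. With a sample left out, the difference in share ran from -0.348 to 0.0481 percentage points for Mt-nd4l and from -0.268 to 3.22 for Mt-nd4, and the ratios Mt-nd4 over Mt-nd4l (-0.02 to 0.29 on the log2 scale) and Mt-nd6 over Mt-nd5 (-0.11 to 0.01) had no fixed direction.

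Over all genes, calls were 1563 with quantile normalization (858 lower, 705 higher), and 821 lower and 928 higher with median of ratios. With the 100 most abundant genes out of the totals they were 827 lower and 909 higher. Leaving out 1 sample gave 552 to 3182 calls, 93 to 984 lower and 459 to 2198 higher. The cause of these changes was not tested. Mt-nd3 and Mt-nd4l rest on 68 to 239 reads per library, which limits their precision.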
